A study of Mus musculus with 12 samples.

Results

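The genes described here are the collagen and laminin chains of the mouse liver cells that were sequenced. They were chosen by symbol (Col followed by a number, a and a number, or Lama, Lamb or Lamc followed by a number) and by a minimum of 10 counts in at least 3 libraries. Of the 53599 genes in the count table, 55 carry such a symbol and 42 reached the minimum. Col6a5, with a third-highest count of 12, was just inside the minimum and Col8a2, with 8, was just outside. The 13 symbols below it were Col2a1, Col6a4, Col8a2, Col9a1, Col10a1, Col11a1, Col13a1, Col17a1, Col19a1, Col24a1, Col25a1, Col26a1 and Col28a1. All 42 genes entered the test across the 16210 genes with enough counts.

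The study sequenced RNA of cells sorted from liver in bulk, as 12 libraries with 3 in each of 4 groups. All mice carried the genotype label WT and received AAV8-TBG-Cre, a virus whose hepatocyte promoter drives Cre, so that EGFP marks hepatocytes and the cells that descend from them. From 1 week later they ate a diet with 0.1% DDC, a compound that injures bile ducts, for 8 weeks. The early group (label Rep_early) was sorted as EGFP+ Cd24- Epcam-, the intermediate group as EGFP+ Cd24+ Epcam-, the full group as EGFP+ Cd24+ Epcam+ and the BEC group, the biliary cells without the hepatocyte label, as EGFP- Epcam+. No group without the virus or the diet was analysed here, and ages, the reporter allele and whether replicates came from separate animals are not given in the sources used here, so p-values measure only the spread between these libraries. Libraries held 15112893 to 19731887 counts. The summed level of 10 hepatocyte markers ran from 97782 to 101729 CPM (counts for each 1000000 counts of a library) in early cells and from 2048 to 2687 CPM in BEC, and that of 10 biliary markers from 969 to 1929 CPM in early cells and from 14492 to 17818 CPM in BEC.

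Basement membranes are thin sheets beneath epithelia, built on a network of laminin trimers, each of an alpha, a beta and a gamma chain, and a second network of type IV collagen trimers. Nidogens and the proteoglycan perlecan link these networks, and integrins and dystroglycan anchor cells to them. Bile ducts rest on such a sheet, whereas hepatocytes in a healthy liver face the space of Disse, which has no continuous one. Fibrillar collagens form the banded fibres of portal tracts and scars, and in liver they are made mainly by stellate cells and portal fibroblasts. In bulk libraries, fewer cells of a type and less RNA per cell cannot be told apart.

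The makeup of collagen and laminin RNA differed between the groups. Shares and sums here are not corrected for transcript length, which ran from 2924 bases (Col9a2) to 11511 (Col12a1) among the 42 genes. The 17 basement membrane chains (6 of type IV collagen and 11 of laminin) took 18.1% ± 2.22 (SD, n = 3) of all counts on the 42 genes in early cells, 46.2% ± 2.58 in intermediate cells, 63.9% ± 1.16 in full cells and 77.0% ± 2.69 in BEC. The basement membrane zone collagens (Col7a1, Col15a1 and Col18a1), of which Col18a1 alone held 95.4% to 99.1% of the summed level in each group, took 70.2% ± 2.74 in early cells, then 35.8% ± 1.52, 19.1% ± 1.20 and 10.6% ± 1.58. The 8 fibrillar collagens held 9.52% ± 2.77, 10.4% ± 1.37, 6.09% ± 0.48 and 6.24% ± 0.70 in the same order. In summed CPM, computed on library sizes scaled by the trimmed mean of M values (TMM), the basement membrane chains stood at 506 ± 77.6, 1255 ± 80.8, 2517 ± 155 and 3517 ± 151. The fibrillar sum, which adds the few counts of listed genes below the minimum, stood at 264 ± 65.3, 283 ± 35.3, 239.7 ± 14.0 and 287 ± 46.9 CPM, so all of its group means lay within 1 SD of the early mean. Its members differed: Col27a1 held 11.8% of the sum in early cells, 47.0% in intermediate cells, 70.9% in full cells and 73.3% in BEC, and the other 7 had summed means of 232, 150, 69.6 and 76.4 CPM. On plain totals of counts the fibrillar sum had means of 174 CPM in early cells and 295, 288 and 345 CPM in the others, so its order depended on the scaling. The mean basement membrane sum was higher and the mean zone sum lower in full than in early cells under both scalings.

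**Figure D1:**
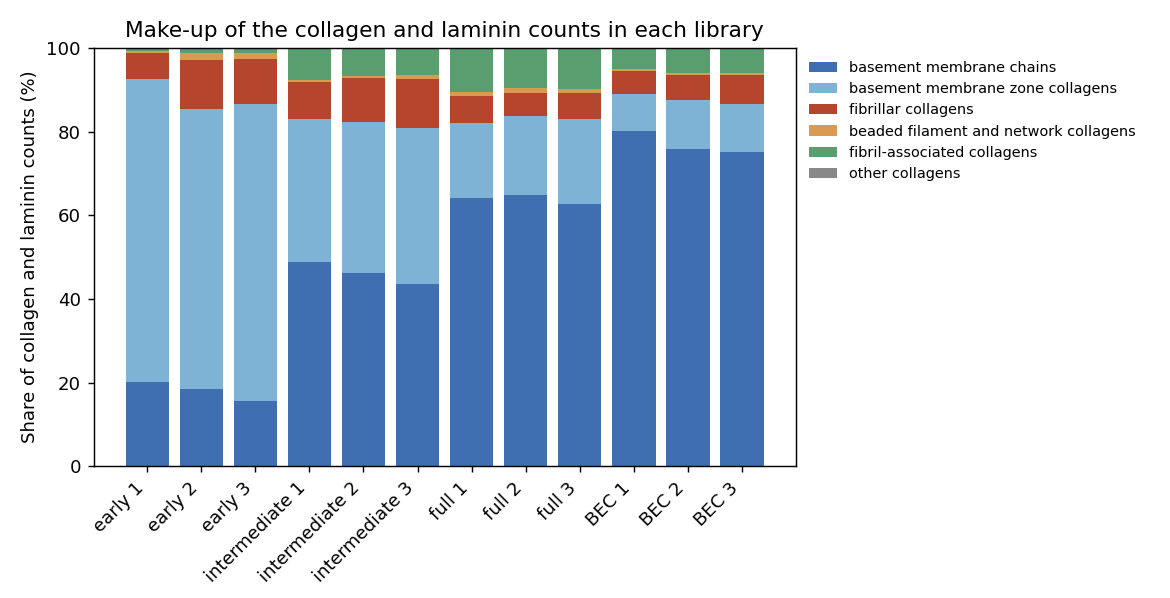
Share of all collagen and laminin counts, in percent, held by each class of chain in the 12 libraries, grouped as early, intermediate, full and BEC. The basement membrane share goes from a mean of 18.1% in early cells to 77.0% in BEC, and the zone collagens, nearly all of them Col18a1, go from 70.2% to 10.6%. Counts are not corrected for transcript length.

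Pairs of groups were compared with edgeR's quasi-likelihood test at a Benjamini-Hochberg adjusted p under 0.05. The comparisons share libraries, so they are not independent of each other. Between early and intermediate cells 54.4% of all genes tested were called, 28.7% higher and 25.7% lower. Of the 17 basement membrane chains, 9 rose, 2 fell and 6 did not pass, with a median log2 fold change of 0.67 beside 0.06 over all genes. Of the 8 fibrillar collagens, 2 rose, 2 fell and 4 did not pass, with a median of -0.81. Between intermediate and full cells 40.7% of genes were called, 20.8% higher and 19.8% lower. There 15 of the 17 basement membrane chains rose and none fell, also at an unadjusted p under 0.05 and in DESeq2, with a median of 1.68 beside 0.01, whereas 1 fibrillar collagen rose, 1 fell and 6 did not pass, with a median of -0.51. Between full cells and BEC 21.3% of genes were called, 10.7% higher in BEC and 10.6% lower. Of the basement membrane chains 9 were higher in BEC and 1 was lower (median 0.70 beside 0.00460), and of the fibrillar collagens none was higher and 2 were lower (median 0.26), with 2 higher at an unadjusted p under 0.05 and 0 in DESeq2. Across full against early cells, where 71.2% of genes were called, 39.1% higher and 32.1% lower, 15 basement membrane chains were higher and none lower (median 2.52 beside 0.14), with 1 lower at an unadjusted p under 0.05 and 1 in DESeq2. There 3 fibrillar collagens were higher and 5 lower (median -1.69). In the test over all 4 groups, in which 75.6% of genes were called, 39 of the 42 chains differed.

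The scaling mattered for the first step. On plain totals of counts the median over all genes moved to 0.72 at the step from early to intermediate cells, to 0.21 at the step from intermediate to full cells and to 1.0 between early and full cells. The share of calls that were higher then became 85.6%, 72.6% and 81.8%, from 52.8%, 51.2% and 54.9%. The median of the basement membrane chains was then 1.34, 1.88 and 3.38, above those all-gene medians in each case, and that of the fibrillar collagens was -0.16, -0.30 and -0.82, below them.

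**Figure D2:**
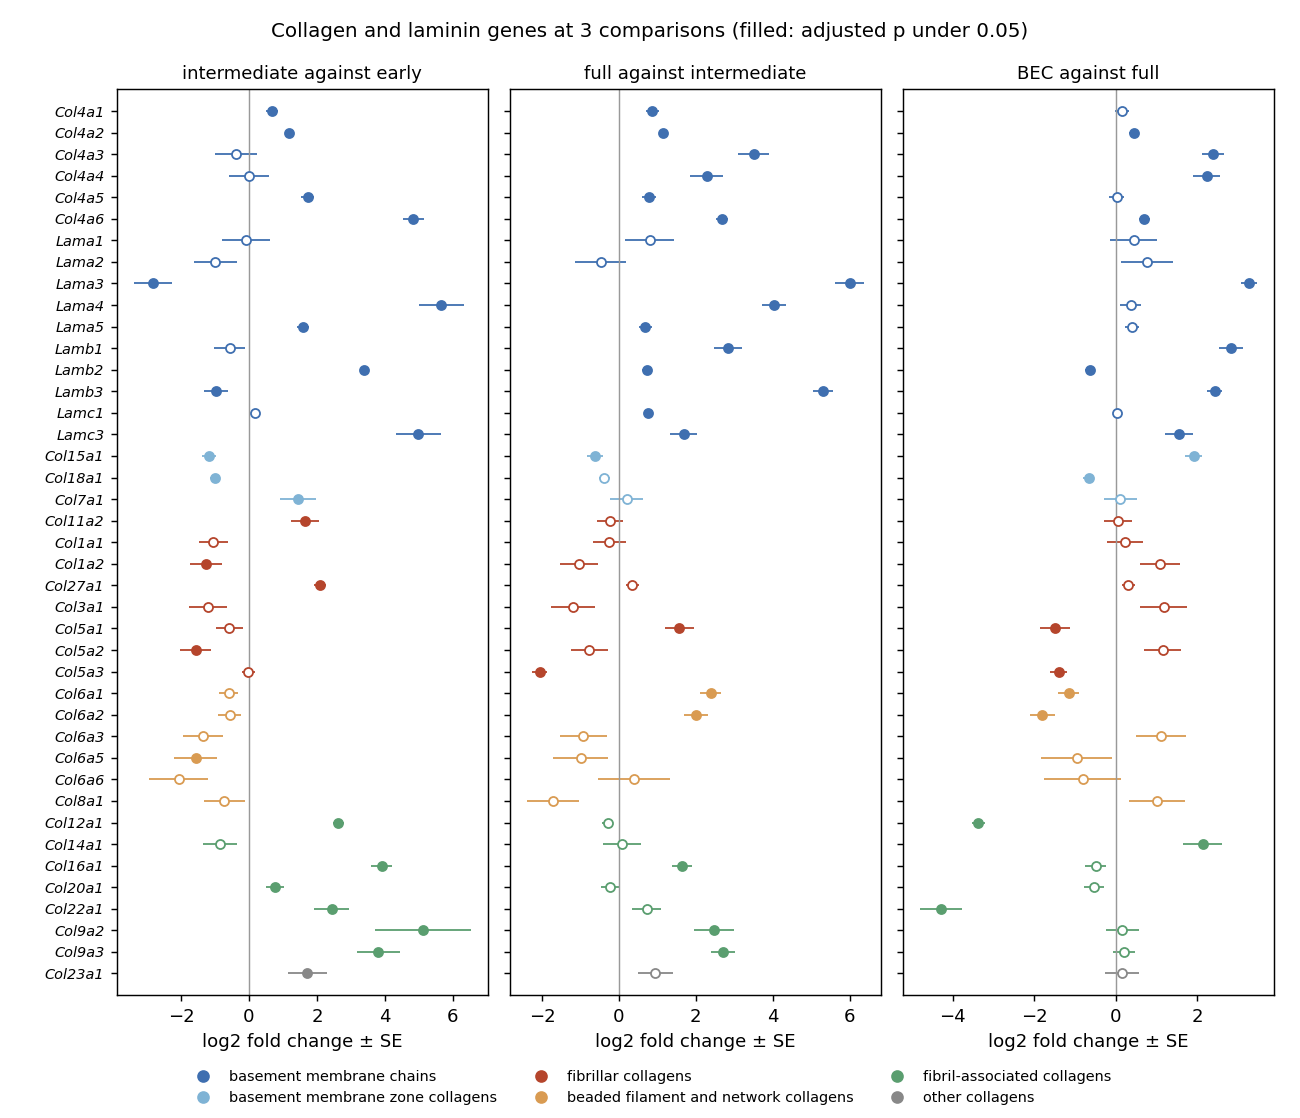
Log2 fold change of collagen and laminin chains for intermediate against early, full against intermediate and BEC against full, with bars for the standard error, filled points for an adjusted p under 0.05 and colours for the class of chain. Between intermediate and full cells 15 of 17 basement membrane chains, of which 1 is not drawn, are called higher, and 1 of 8 fibrillar collagens is.

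Type IV collagen is made of 6 chains whose genes lie head to head in pairs. Col4a1 and Col4a2 encode the form found in nearly all basement membranes, and their starts are close enough for a single stretch of DNA to serve both. In RefSeq's annotation of mouse GRCm38.p6, an older build than the GRCm39 of the counts, the starts are at positions 11312826 and 11312805 of chromosome 8 on opposite strands, so that the first 22 bases of the transcripts overlap. The windows from 250 bases before to 50 after each start are printed because both genes rose up to full cells while their ratio shifted; the first is chr8:11312777-11313076, minus strand, and the second chr8:11312555-11312854, plus strand. They share 78 bases, chr8:11312777-11312854. Capitals mark matches on either strand to CCAAT or GGGCGG.
Col4a1: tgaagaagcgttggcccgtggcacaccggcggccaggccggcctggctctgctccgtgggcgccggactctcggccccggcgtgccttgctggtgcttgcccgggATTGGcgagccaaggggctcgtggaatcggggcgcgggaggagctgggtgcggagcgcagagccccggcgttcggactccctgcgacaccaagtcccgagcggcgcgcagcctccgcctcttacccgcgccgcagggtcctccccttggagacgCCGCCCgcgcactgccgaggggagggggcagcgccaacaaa
Col4a2: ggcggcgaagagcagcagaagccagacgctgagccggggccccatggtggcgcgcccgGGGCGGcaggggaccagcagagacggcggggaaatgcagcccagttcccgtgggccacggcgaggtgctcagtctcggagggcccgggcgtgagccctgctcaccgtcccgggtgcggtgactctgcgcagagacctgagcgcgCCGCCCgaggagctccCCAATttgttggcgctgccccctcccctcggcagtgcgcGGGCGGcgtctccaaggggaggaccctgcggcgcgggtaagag
The letters TATAAA of the TATA box, TGANTCA of the AP-1 site and GGAATG of the TEAD site were searched as well, on both strands, and neither window holds any of them. Over all 32851 RefSeq windows of this length, 37.4% hold CCAAT, 35.7% hold GGGCGG, 13.6% hold the TATA box letters, 7.81% those of AP-1 and 14.7% those of TEAD. Windows were found for 29 of the 42 genes, 32 windows in all. Of these, 9 hold CCAAT, 22 hold GGGCGG, 2 hold the TATA box letters (Col3a1 and Col11a2), 1 those of AP-1 (Col6a1) and 6 those of TEAD. These matches describe letters and show no binding.

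Col4a1 RNA stood at 182, 142 and 107 CPM in the early libraries, 214, 252 and 218 in the intermediate, 394, 468 and 387 in the full and 372, 507 and 507 in BEC. Early, intermediate and full libraries did not overlap, and full cells and BEC did. The gene rose by a log2 fold change of 0.67 ± 0.17 (SE, edgeR adjusted p = 0.00532) between early and intermediate cells and by 0.87 ± 0.17 (adjusted p = 0.00127) between intermediate and full cells. Col4a2 had 40.2, 41.6 and 36.5 CPM in early cells, 92.7, 95.2 and 77.7 in intermediate cells, 199, 211 and 178 in full cells and 230, 286 and 281 in BEC. No group of Col4a2 overlapped its neighbour. Its log2 fold changes were 1.17 ± 0.12 (edgeR adjusted p = 1.68e-06), 1.15 ± 0.11 (adjusted p = 3.16e-06) and, for BEC against full, 0.44 ± 0.11 (adjusted p = 0.0112). That last difference no longer passed without full replicate 3 (adjusted p = 0.0638) or BEC replicate 2 (0.0588). The ratio of Col4a1 to Col4a2 counts went from 2.93 to 4.52 in early libraries to 2.31 to 2.81, 1.98 to 2.22 and 1.61 to 1.81 in the intermediate, full and BEC libraries, with no overlap between any of the groups.

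Col4a3 and Col4a4, which with Col4a5 form the trimer of specialised membranes such as that of the kidney glomerulus, were rare. Col4a3 stood between 0.0548 and 0.396 CPM in early and intermediate libraries, at 2.30, 2.81 and 2.32 CPM in full cells and at 10.2, 14.1 and 14.3 CPM in BEC. Col4a4 had 0.219 to 0.962 CPM in early and intermediate libraries, 2.38, 2.76 and 2.27 CPM in full cells and 8.67, 14.2 and 12 CPM in BEC. For both genes the full libraries lay above every early and intermediate library and below every BEC library. Between full cells and BEC their log2 fold changes were 2.38 ± 0.27 (edgeR adjusted p = 2.44e-05) and 2.23 ± 0.33 (adjusted p = 0.000268).

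Col4a5 and Col4a6 together encode a trimer found under some smooth muscle and glandular epithelia. Col4a5 rose from 18.8, 34.7 and 37.7 CPM in early cells to 95.9, 103 and 103 CPM in intermediate cells and to 156, 184 and 183 CPM in full cells, with 155, 193 and 182 CPM in BEC. Full cells and BEC overlapped, with a log2 difference of 0.02 ± 0.18 (edgeR adjusted p = 0.965). Col4a6 stood at 0.158, 0.364 and 0.405 CPM in early cells, 10.8, 9.15 and 7.02 in intermediate cells, 56.5, 63.7 and 52.5 in full cells and 79.0, 101 and 101 in BEC. All 4 groups were apart. Its log2 fold changes were 4.84 ± 0.31 (edgeR adjusted p = 2.62e-08), 2.68 ± 0.16 (adjusted p = 7.49e-08) and 0.70 ± 0.14 (adjusted p = 0.00282). The first of these rests on early libraries with 2, 4 and 5 counts, near the floor of 3.

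**Figure D3:**
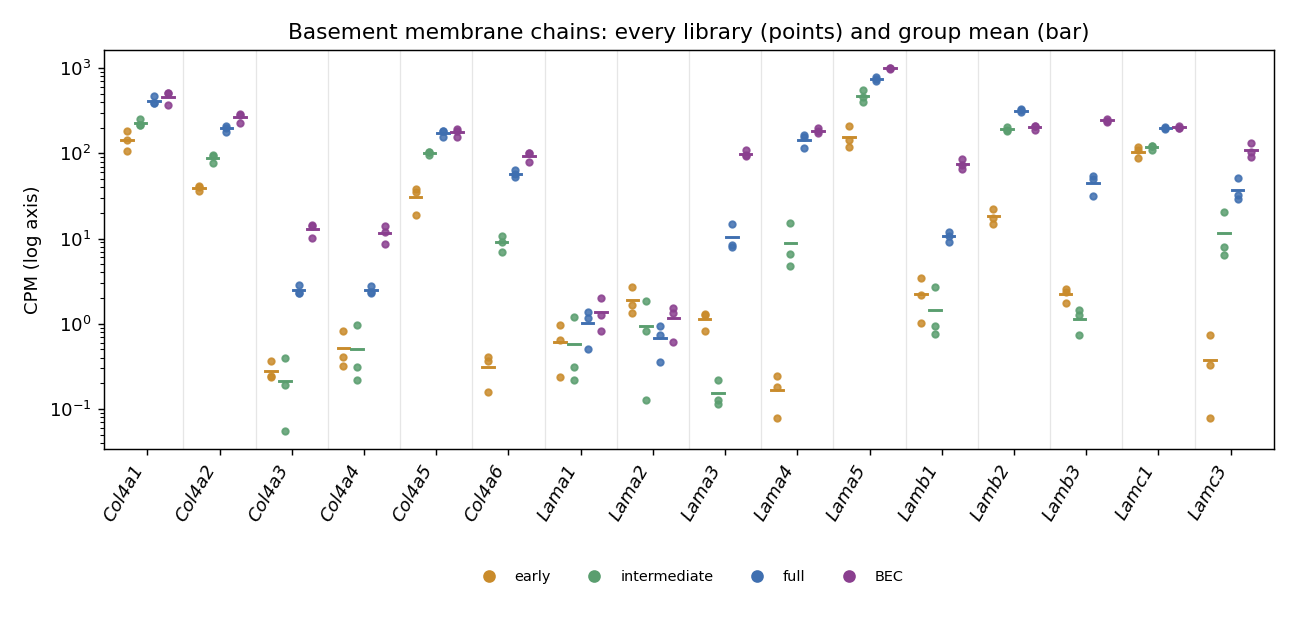
Level of type IV collagen and laminin chains in each library, in CPM on a log axis, for the early, intermediate, full and BEC groups, with 1 point per library and a bar at the group mean. 1 chain is not drawn. Col4a6 and Lamc3 climb over all 4 groups, whereas Lama3 and Lamb3 are lowest in intermediate cells.

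Among laminin alpha chains, Lama5, the main alpha chain of mature epithelial basement membranes, was the most abundant. Its levels were 209, 143 and 118 CPM in early cells, 553, 455 and 400 in intermediate cells, 798, 753 and 711 in full cells and 1003, 1002 and 975 in BEC. All 4 groups were apart. Lama5 rose by a log2 fold change of 1.58 ± 0.18 (edgeR adjusted p = 5.02e-06) and then by 0.68 ± 0.17 (adjusted p = 0.00611). BEC stood above full cells by 0.40 ± 0.17, which did not pass without a replicate block (edgeR adjusted p = 0.132) and passed with it (0.0251), in a fit of these groups alone (0.00541) and without early replicate 1 (0.0284).

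Lama4, the alpha chain best known from vessel walls and other mesenchymal membranes, had only 1, 2 and 3 counts in the early libraries. It reached 15.4, 6.58 and 4.70 CPM in intermediate cells, 155, 163 and 115 CPM in full cells and 199, 184 and 173 CPM in BEC. Pooled over libraries, intermediate cells held 51.9 times the early level (95% exact interval for counting error only 23.6 to 142) and full cells 864 times (397 to 2355). Intermediate replicate 1 held 245 of the 448 counts pooled for its group. Between intermediate and full cells the log2 fold change was 4.03 ± 0.31 (edgeR adjusted p = 4.55e-07), and between full cells and BEC it was 0.36 ± 0.26 (adjusted p = 0.409). With 1 library left out, it ran from 5.03 to 6.05 for intermediate against early and from 3.72 to 4.67 for full against intermediate. The summed level of 12 markers of endothelial cells was 47.0 to 56.4 CPM in early cells, 25.3 to 37.1 in intermediate cells, 12.4 to 13.7 in full cells and 10.3 to 18.5 in BEC. Stab1 and Stab2, genes of sinusoidal endothelium, held 80.3% of it in early cells. Without them the means from early cells to BEC were 10.4, 11.4, 4.54 and 9.16 CPM. Of these, Vwf alone held 1.36, 4.26, 2.40 and 5.49 CPM. Of 9 endothelial markers tested, 1 was called higher and 2 lower at the first step, and 0 and 4 at the second. In full against early cells 0 were higher and 5 lower, and in BEC against full cells 1 and 1. Over all genes the shares were 28.7% and 25.7%, 20.8% and 19.8%, 39.1% and 32.1%, and 10.7% and 10.6%. The part of endothelial cells in the Lama4 level was not tested.

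Lama3 and Lamb3 encode an alpha and a beta chain of the laminin that anchors epithelia through hemidesmosomes, and both were lowest in intermediate cells. Lama3 stood at 1.27, 0.818 and 1.29 CPM in early cells, 0.126, 0.219 and 0.113 CPM in intermediate cells, 14.6, 7.98 and 8.31 CPM in full cells and 96.0, 109 and 92.9 CPM in BEC. Lamb3 followed the same order, with 2.37, 1.73 and 2.59 CPM, then 1.45, 1.26 and 0.736, then 54.8, 50.1 and 31.3, and 241, 252 and 237 CPM in BEC. Between early and intermediate cells Lama3 fell by 2.83 ± 0.56 on the log2 scale (edgeR adjusted p = 0.000758), and in a fit of these groups alone it did not reach the count filter and was not tested. Its counts were 16, 9 and 16 in early cells and 2, 4 and 2 in intermediate cells, the latter near the floor of 3. The fall of Lamb3 was smaller, at -0.97 ± 0.34 (edgeR adjusted p = 0.0268). It did not pass on plain totals of counts (log2 -0.31, adjusted p = 0.435), in a fit of these groups alone (0.0606), or without early replicate 1 (0.0796), early replicate 3 (0.0954) or intermediate replicate 3 (0.101).

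From intermediate to full cells both genes rose, Lama3 by 6.0 ± 0.37 (edgeR adjusted p = 8.43e-08) and Lamb3 by 5.31 ± 0.25 (adjusted p = 1.50e-08). BEC stood above full cells by 3.26 ± 0.20 and 2.42 ± 0.18 on the log2 scale (edgeR adjusted p = 1.33e-07 and 5.99e-07). Itgb4, the integrin chain of hemidesmosomes that binds this laminin, had 0.243 to 1.18 CPM in early cells, 5.43 to 13.6 in intermediate cells, 108 to 137 in full cells and 276 to 293 in BEC.

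The beta chains Lamb1 and Lamb2 can take the same place in a trimer beside Lama5 and Lamc1, and they followed different courses, with Lamb1 below Lamb2 in every library. Their windows of 300 bases are printed because the ratio of these chains differed between all groups. Lamb1 is at chr12:31265043-31265342 and Lamb2 at chr9:108479612-108479911, both on the plus strand of GRCm38.p6 as RefSeq annotates it. Capitals again mark CCAAT or GGGCGG on either strand.
Lamb1: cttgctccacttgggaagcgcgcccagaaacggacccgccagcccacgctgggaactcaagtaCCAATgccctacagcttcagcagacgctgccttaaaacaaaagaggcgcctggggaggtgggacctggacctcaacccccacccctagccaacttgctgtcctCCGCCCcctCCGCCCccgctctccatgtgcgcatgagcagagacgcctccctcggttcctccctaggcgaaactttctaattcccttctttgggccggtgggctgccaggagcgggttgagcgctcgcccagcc
Lamb2: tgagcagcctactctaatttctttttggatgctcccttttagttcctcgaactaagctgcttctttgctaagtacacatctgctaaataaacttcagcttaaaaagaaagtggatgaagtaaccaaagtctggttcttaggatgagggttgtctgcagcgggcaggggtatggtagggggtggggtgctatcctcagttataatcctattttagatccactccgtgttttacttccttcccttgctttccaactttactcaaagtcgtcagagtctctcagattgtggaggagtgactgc
The Lamb1 window has a GC content of 63.7% and holds matches to both motifs, and the Lamb2 window has 44% and holds none of the 5 motifs searched. Nothing about a factor follows from letters that are missing in this window.

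Lamb1 stood at 1.03, 2.18 and 3.40 CPM in early cells and 0.754, 0.931 and 2.72 CPM in intermediate cells, which overlapped and were called apart only without intermediate replicate 3 (-1.37, edgeR adjusted p = 0.0181). It reached 10.8, 11.9 and 9.01 CPM in full cells and 65.9, 72.1 and 86.7 CPM in BEC. Its rise was 2.83 ± 0.37 on the log2 scale between intermediate and full cells (edgeR adjusted p = 3.64e-05) and 2.82 ± 0.29 between full cells and BEC (adjusted p = 1.06e-05). With 1 library left out, the first of these ran from 2.54 to 3.62. Lamb2 had 14.9, 17.6 and 22.3 CPM in early cells, 182, 191 and 203 in intermediate cells, 303, 328 and 321 in full cells and 189, 210 and 212 in BEC. Full cells were thus its highest group, and they did not overlap any other. Lamb2 rose by 3.39 ± 0.13 (edgeR adjusted p = 5.61e-10) and 0.73 ± 0.12 (adjusted p = 0.000221) and was lower in BEC than in full cells by -0.64 ± 0.12 (adjusted p = 0.00114). It was the 1 basement membrane chain called lower in BEC. Counts of Lamb1 for each count of Lamb2 were 0.0688 to 0.152 in early, 0.00414 to 0.0134 in intermediate, 0.0281 to 0.0363 in full and 0.343 to 0.410 in BEC libraries, all groups apart.

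**Figure D4:**
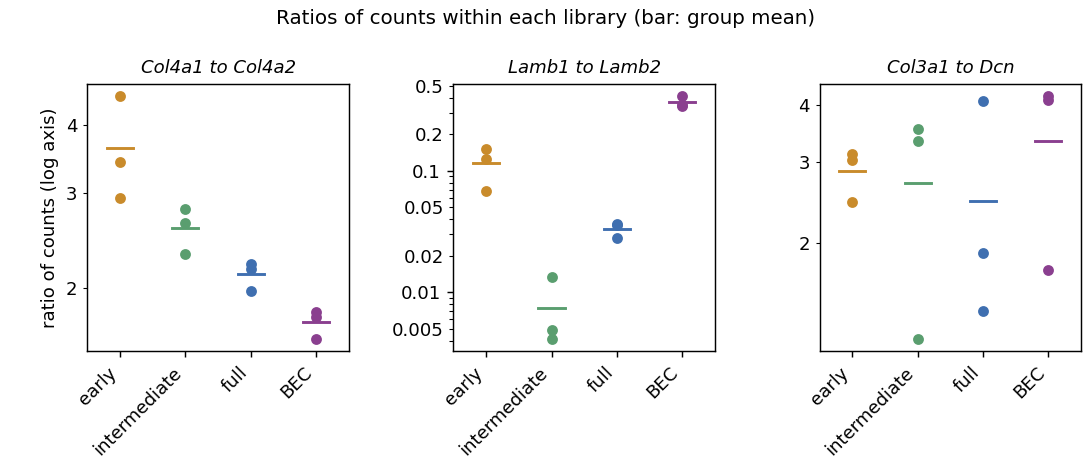
Ratios of counts within each library, on log axes, for Col4a1 to Col4a2, Lamb1 to Lamb2 and Col3a1 to the fibroblast marker Dcn, with 1 point per library and a bar at the mean of each of the 4 groups. Lamb1 to Lamb2 is lowest in intermediate libraries (0.00414 to 0.0134) and highest in BEC (0.343 to 0.410).

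Of the gamma chains, Lamc1, shared by most laminins, was already at 119, 87.7 and 109 CPM in early cells. It stood at 121, 110 and 122 CPM in intermediate cells, 198, 206 and 192 in full cells and 200.1, 199.8 and 208 in BEC. The change lay between intermediate and full cells, with a log2 fold change of 0.75 ± 0.10 (edgeR adjusted p = 5.74e-05). The first step gave 0.16 ± 0.10 (adjusted p = 0.199), against 0.83 (8.85e-06) on plain totals of counts, where all genes had a median of 0.72, and it passed without early replicate 1 (0.0443). Full cells and BEC overlapped. Lamc3, a rarer gamma chain, went from 0.0791, 0.728 and 0.324 CPM to 7.98, 20.7 and 6.34, then 29.0, 51.1 and 32.8, and 105, 134 and 91.5 CPM in BEC, with no group overlapping another. It rose by 4.99 ± 0.67 (edgeR adjusted p = 2.61e-05), 1.68 ± 0.36 (adjusted p = 0.00214) and 1.55 ± 0.34 (adjusted p = 0.00469). With 1 library left out, the first rise ran from 4.28 to 5.82 and the second from 1.37 to 2.39, and both stayed called. The early libraries held 1, 8 and 4 counts of Lamc3, near the floor of 3. Lama1 and Lama2 were low throughout, at 0.237 to 2.01 and 0.126 to 2.67 CPM, and neither was called in any comparison. Lama2 stood lower in full than in early cells with no overlap of libraries (-1.46 ± 0.65, edgeR adjusted p = 0.0587). This difference passed in DESeq2 (0.0393), without a filter (0.0188) and in a fit of these groups alone (0.0150). It also passed without intermediate replicate 1 (0.0200) or 3 (0.0344). A replicate block gave 0.0408, though full against early was not treated as paired. Without intermediate replicate 3 Lama2 was also called lower at the first step (0.0343), and on plain totals of counts Lama1 was called higher in full than in early cells (0.0431).

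Levels of different chains can be compared only per length of transcript, for which lengths from GENCODE M21 were used. In CPM per kilobase of transcript, Col18a1 led in early cells at 348, followed by Col4a1 at 21.7, Lamc1 and Lama5 at 13.8 each, Col5a3 at 13.4 and Col3a1 at 11. In full cells Col18a1 stood at 133, Lama5 at 66.2, Col4a1 at 62.9, Col16a1 at 58.7 and Lamb2 at 56.4. In BEC, Lama5 at 87.2, Col18a1 at 83.4 and Col4a1 at 69.8 were among the highest. The number of basement membrane chains with a group mean of at least 5 CPM was 6, 10, 13 and 15 of 17 from early cells to BEC, and that of fibrillar collagens 7, 5, 6 and 5 of 8.

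The collagens of the basement membrane zone behaved apart from the chains of the networks. Col18a1, whose end fragment is endostatin and which hepatocytes are known to express, had 2120, 1725 and 1992 CPM in early cells, 924, 982 and 986 in intermediate cells, 702, 767 and 758 in full cells and 351, 539 and 510 in BEC. All 4 groups were apart, in falling order. Its log2 fold changes were -1.01 ± 0.14 (edgeR adjusted p = 4.58e-05), -0.38 ± 0.14 (adjusted p = 0.0502) and, for BEC against full, -0.67 ± 0.14 (adjusted p = 0.00392). The middle difference passed with a replicate block (0.0311), without a filter on low counts (0.0253), in a fit of these groups alone (0.00426) and without early replicate 1 (0.0436), early replicate 2 (0.0437), BEC replicate 1 (0.00774) or BEC replicate 2 (0.0477). Col15a1, a related collagen, was lowest in full cells, with 15.7, 21.5 and 23.0 CPM, then 7.17, 7.78 and 11.5, then 6.0, 5.71 and 5.55, and 17.9, 26.0 and 20.7 CPM in BEC. It fell by 1.18 ± 0.21 on the log2 scale at the first step (edgeR adjusted p = 0.000253) and stood 1.90 ± 0.21 higher in BEC than in full cells (adjusted p = 1.67e-05). The fall between intermediate and full cells (-0.62 ± 0.21, edgeR adjusted p = 0.0314) did not pass on plain totals of counts (0.131) or without intermediate replicate 3 (0.172) or full replicate 1, 2 or 3 (0.0581, 0.0801 and 0.0823). Col7a1, the anchoring fibril collagen, had 0.0909 to 1.36 CPM and was called higher at the first step and in full against early cells.

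Partners and receptors were read from lists of 13 tested genes each. Over all genes tested, 28.7% were higher and 25.7% lower at the first step, 20.8% and 19.8% at the second, and 10.7% and 10.6% in BEC against full cells. Of the basement membrane partners, 6 were called higher and 2 lower between early and intermediate cells, 9 and 3 between intermediate and full cells, and 2 and 5 in BEC against full cells. Nid1, a nidogen that links laminin to type IV collagen, did not follow the chains it binds, with 401, 400 and 375 CPM in early cells, 373, 467 and 520 in intermediate cells, 210, 230 and 260 in full cells and 44.9, 53.7 and 48.1 in BEC. Perlecan (Hspg2) had 6.56 to 14.9 CPM in early cells, 33.0 to 46.1 in intermediate cells, 304 to 497 in full cells and 468 to 557 in BEC. Of the receptors, 8 were higher and 1 lower at the first step, 7 and 2 at the second, and 2 and 2 in BEC against full cells. Itga3, an integrin chain that binds laminin, rose by 3.05 (edgeR adjusted p = 2.92e-10) and then by 0.63 (adjusted p = 0.000168) and BEC differed from full cells by -0.12 (adjusted p = 0.469).

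The fibrillar collagens fell into several patterns. Col1a1, which with Col1a2 forms type I collagen, had 18.0, 49.2 and 55.5 CPM in early cells, 9.49, 16.6 and 33.1 in intermediate cells, 18.2, 12.2 and 19.6 in full cells and 15.8, 15.3 and 27.2 in BEC. Col1a2 had 15.2, 39.7 and 49.2 CPM, then 6.66, 11.9 and 24.4, then 7.02, 3.79 and 10.2, and 11.2, 13.0 and 20.1 CPM in BEC. Col3a1, the type III chain, had 22, 80.3 and 81.0 CPM, then 7.86, 22.8 and 48.7, then 11, 7.22 and 16.4, and 21.4, 20.2 and 36.2 CPM in BEC. For these genes early replicate 1 lay well below the other early libraries, intermediate replicate 3 lay above the other intermediate libraries, and early and intermediate groups overlapped. Col5a2, a type V chain, had 3.24, 9.19 and 7.77 CPM in early cells and 1.19, 1.81 and 3.74 in intermediate cells, which overlapped as well, with 1.03 to 1.88 CPM in full cells and 2.31 to 3.79 CPM in BEC.

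Between early and intermediate cells Col1a2 was called lower (log2 -1.27 ± 0.48, edgeR adjusted p = 0.0377), as was Col5a2 (-1.57 ± 0.45, adjusted p = 0.00898). Neither passed on plain totals of counts (adjusted p = 0.262 and 0.0835), and Col1a2 did not in a fit of these groups alone (0.0577). Without early replicate 2 or 3 or intermediate replicate 1 or 2, Col1a2 had adjusted p of 0.0953, 0.160, 0.125 and 0.112. Col1a1 (-1.05 ± 0.44, edgeR adjusted p = 0.0580) and Col3a1 (-1.20 ± 0.56, adjusted p = 0.0835) did not pass and did with a replicate block (0.00624 and 0.00766), without a filter on low counts (8.08e-05 and 7.77e-05), without early replicate 1 (0.00869 and 0.0180) and without intermediate replicate 3 (0.00722 and 0.0110). With median-of-ratios factors Col1a1 passed as well (0.0473). Between intermediate and full cells the differences of Col1a2 (-1.04 ± 0.50, edgeR adjusted p = 0.114) and Col3a1 (-1.20 ± 0.57, adjusted p = 0.113) did not pass, except without a filter on low counts (0.000565 and 0.000110), without intermediate replicate 1 (0.0372 and 0.0199) and, for Col1a2, with a replicate block (0.0246). The count of fibrillar collagens called lower between early and intermediate cells was 4 without early replicate 1 or intermediate replicate 3, and 1 without early replicate 2, early replicate 3, intermediate replicate 1 or intermediate replicate 2. Full cells stood below early cells in Col1a2 (-2.31 ± 0.50, edgeR adjusted p = 0.000896), Col3a1 (-2.40 ± 0.58, adjusted p = 0.00210) and Col5a2 (-2.34 ± 0.46, adjusted p = 0.000442), with no overlap of libraries. Col1a1 was called as well (-1.29 ± 0.44, edgeR adjusted p = 0.0170), with libraries that overlapped, and no longer passed on plain totals of counts (-0.43, 0.364) or without early replicate 2 (0.0556), early replicate 3 (0.0789) or full replicate 2 (0.0679). BEC against full cells gave 0.22, 1.07, 1.17 and 1.15 for Col1a1, Col1a2, Col3a1 and Col5a2 (edgeR adjusted p = 0.798, 0.156, 0.186 and 0.102), and the last 3 passed with a replicate block (0.0177, 0.0383 and 0.0164), in a fit of these groups alone (0.0356, 0.0149 and 0.0299) and without a filter on low counts (0.000679, 0.000365 and 0.0169).

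Stellate cell and fibroblast markers were measured beside these genes, from a list of 23. Dcn, a proteoglycan of fibroblasts and stellate cells, had 8.94, 26.5 and 26.0 CPM in early cells, 6.35, 6.85 and 13.8 in intermediate cells, 7.70, 3.79 and 4.02 in full cells and 12.3, 4.94 and 8.68 in BEC. Lum, a related proteoglycan, had 2.29, 9.73 and 8.01 CPM, then 1.07, 2.03 and 5.49, then 2.55, 0.758 and 1.31, and 4.43, 2.33 and 2.74 CPM in BEC. Early replicate 1 was again the lowest early library and intermediate replicate 3 the highest intermediate library. The library lowest in Dcn was the lowest in Col1a1 and Col3a1 in 4 of 4 groups and in Col1a2 and Col5a2 in 3, whereas Col5a1, Col5a3, Col11a2 and Col27a1 shared it in 1. Among the 17 basement membrane chains, Lama2 alone shared it in 3 or more groups. The highest libraries agreed less. Dcn was highest in early replicate 2, intermediate replicate 3, full replicate 1 and BEC replicate 1. Col1a1, Col1a2 and Col3a1 were highest in replicate 3 of every group, as was Col5a2 except in early cells, where replicate 2 was highest. In BEC, Col1a2 and Col5a2 were lowest in replicate 1. These are descriptions over 3 libraries a group.

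The markers as a whole did not move together. The sum over all 23 was 191 to 320 CPM in early cells, 1880 to 2590 in intermediate cells, 3042 to 3514 in full cells and 1832 to 2450 in BEC, and most of it outside early cells was Rgs5, a pericyte marker that stood at 33.5 to 49.4 CPM in early cells and 1590 to 3398 CPM in the other groups. Without Rgs5 the sum was 157 to 270 CPM in early cells, 125 to 204 in intermediate cells, 97.6 to 118 in full cells and 214 to 258 in BEC. Without Reln, Entpd2, Bgn and Ecm1 as well, the 18 markers left had 30.7 to 82.3, 20.9 to 49.3, 14.1 to 24.8 and 24.8 to 35.7 CPM, both sets chosen after the levels were seen. Every marker had more than 3 counts in some library, yet Thy1 never passed 4 counts and was at 0 in 3 libraries, and Gli1 never passed 6 and was at 0 in 5. Acta2 reached at most 1.02 CPM. Of the 18 markers tested, 2 were higher and 4 lower in intermediate than in early cells, 2 and 3 in full than in intermediate cells, and 4 and 2 in BEC than in full cells, where 54.4%, 40.7% and 21.3% of all genes were called in either direction. Their part in the fibrillar results was not tested.

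Relative to Dcn in the same library, Col3a1 counts were 2.46 to 3.12 in early cells, 1.24 to 3.54 in intermediate cells, 1.43 to 4.08 in full cells and 1.75 to 4.17 in BEC, so the groups overlapped. Col1a1 counts for each Dcn count were 1.86 to 2.14, 1.5 to 2.42, 2.36 to 4.87 and 1.28 to 3.14. The ratio of Col1a1 to Col1a2 was 1.13 to 1.24 in early, 1.35 to 1.42 in intermediate, 1.92 to 3.22 in full and 1.18 to 1.41 in BEC libraries, with full cells apart from the rest. The highest library of a group exceeded the lowest by 3.68, 6.20, 2.27 and 1.79 times for Col3a1 and by 1.36, 1.10, 1.07 and 1.04 times for Lamc1, from early cells to BEC. Over chains with a group mean of at least 5 CPM the median of this range was 1.6, 1.30, 1.21 and 1.24 for basement membrane chains and 2.83, 3.48, 1.71 and 1.78 for fibrillar collagens.

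**Figure D5:**
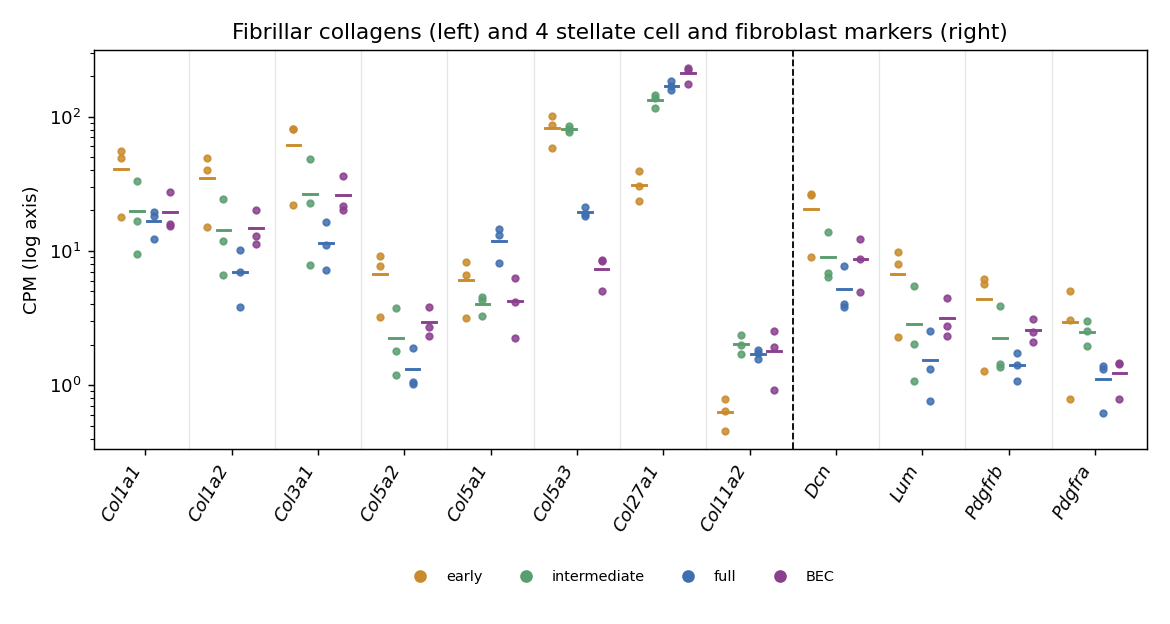
Levels of the 8 fibrillar collagens and of 4 stellate cell and fibroblast markers (Dcn, Lum, Pdgfrb and Pdgfra), in CPM on a log axis, with 1 point per library and a bar at the mean of each of the 4 groups. Col1a1, Col1a2, Col3a1 and Dcn are lowest in early replicate 1 among the early libraries, whereas Col27a1 and Col5a3 separate early or intermediate libraries from full ones with less spread.

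The other fibrillar collagens did not follow type I and III. Col27a1, a chain of thin fibrils best known from cartilage, had 23.6, 30.2 and 39.7 CPM in early cells, 137, 146 and 117 in intermediate cells, 185, 168 and 157 in full cells and 176, 230 and 224 in BEC. It rose by 2.09 ± 0.17 at the first step (edgeR adjusted p = 2.44e-07), and the next difference, 0.35 ± 0.16, did not pass (adjusted p = 0.0934) except on plain totals of counts (0.0153), without a filter on low counts (0.0311), in a fit of these groups alone (0.0177) or without early replicate 1 or 3 (0.0445 and 0.0460). Col5a3, another type V chain, had 102, 86.1 and 58.5 CPM in early cells, 76.3, 85.5 and 80.9 in intermediate cells, 18.1, 19 and 21.3 in full cells and 5.06, 8.53 and 8.41 in BEC. It fell by 2.06 ± 0.20 on the log2 scale between intermediate and full cells (edgeR adjusted p = 2.46e-06) and was lower still in BEC (-1.40 ± 0.21, adjusted p = 0.000243). At the first step its difference was -0.02 ± 0.19, and on plain totals of counts it was 0.65, near the all-gene median of 0.72.

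Col5a1, the chain common to most type V collagen, was highest in full cells. It had 3.16, 6.64 and 8.34 CPM in early cells, 4.53, 3.29 and 4.30 in intermediate cells, 13.1, 14.6 and 8.09 in full cells and 2.26, 4.19 and 6.31 in BEC. The rise between intermediate and full cells was 1.56 ± 0.38 (edgeR adjusted p = 0.00434), and BEC stood lower by -1.48 ± 0.37 (adjusted p = 0.00988). Full and early cells overlapped; that difference (0.98 ± 0.37, edgeR adjusted p = 0.0292) did not pass without early replicate 1 (0.111), early replicate 2 (0.0532), full replicate 1 (0.0723) or full replicate 2 (0.101). Col11a2 was called higher at the first step, from 0.455 to 0.791 CPM in early cells to 1.70 to 2.36 CPM in intermediate cells.

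Type VI collagen, which forms beaded filaments next to basement membranes, was split between its chains. Col6a1 had 3.56, 9.46 and 6.56 CPM in early cells, 4.15, 3.51 and 5.15 in intermediate cells, 19.9, 27.5 and 19.5 in full cells and 10.5, 10.1 and 9.37 in BEC. Col6a2, its neighbour in the trimer, had 2.29 to 7.46 CPM in early cells, 2.64 to 4.59 in intermediate cells, 12.8 to 14.4 in full cells and 3.18 to 4.20 in BEC. In both genes the full libraries lay above all others, with log2 fold changes over intermediate cells of 2.38 ± 0.27 (edgeR adjusted p = 1.17e-05) and 2.0 ± 0.32 (adjusted p = 0.000240). BEC stood below full cells by -1.16 ± 0.25 (edgeR adjusted p = 0.00416) and -1.80 ± 0.32 (adjusted p = 0.000903). Col6a3, the third chain of the trimer, instead had 5.54, 19.7 and 24.3 CPM in early cells, 2.20, 4.71 and 12.3 in intermediate cells, 1.96 to 4.11 in full cells and 5.06 to 11.6 in BEC. Its difference between full and intermediate cells was -0.93 ± 0.61 (edgeR adjusted p = 0.253, and 0.0223 without a filter on low counts), and its lowest library was that of Dcn in 3 of 4 groups. Its highest library was replicate 3 in every group, which was that of Dcn in intermediate cells alone. At the first step -1.36 ± 0.59 did not pass (edgeR adjusted p = 0.0670) and did with a replicate block (0.00719), without a filter on low counts (0.000178), without early replicate 1 (0.0141) and without intermediate replicate 3 (0.00821). Without early replicate 1, Col6a1 and Col6a2 were called lower at this step too (0.00551 and 0.0123), as was Col6a1 in DESeq2 (0.0443). Of the 6 chains of the beaded filament and network class, none rose and 1 (Col6a5, 0.126 to 0.679 CPM in intermediate cells) fell at the first step, with 0 higher and 3 lower at an unadjusted p under 0.05. At the adjusted threshold 28.7% of all genes were higher and 25.7% lower there. Col6a6 and Col8a1 were not called at either step or between full cells and BEC.

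Among the 7 fibril-associated collagens, 6 rose between early and intermediate cells and none fell, also at an unadjusted p under 0.05. At the adjusted threshold 28.7% of all genes rose and 25.7% fell there. Between intermediate and full cells 3 rose, beside 20.8% of all genes, and 1 was higher and 2 were lower in BEC than in full cells, beside 10.7% and 10.6% of all genes. Col12a1, a collagen that coats fibrils, had 10.4, 13.5 and 14.7 CPM in early cells, 79.9, 75.6 and 84.1 in intermediate cells, 60.8, 54.9 and 79.4 in full cells and 6.98, 6.10 and 5.76 in BEC. All intermediate and full libraries thus lay above all early and BEC libraries. Its log2 fold changes were 2.64 ± 0.16 (edgeR adjusted p = 1.67e-08) at the first step and -3.37 ± 0.16 (adjusted p = 1.68e-08) for BEC against full. The step from intermediate to full cells passed only without full replicate 3 (-0.46, adjusted p = 0.0181). Col22a1 had 1.30 to 1.48 CPM in intermediate cells and 1.79 to 2.54 in full cells, against 0.0909 to 0.475 in early cells and 0.0482 to 0.186 in BEC. Col16a1 had 3.24, 5.73 and 10.7 CPM in early cells, 119, 99.9 and 76.6 in intermediate cells, 330, 319 and 268 in full cells and 171, 250 and 230 in BEC. It rose by 3.91 ± 0.31 (edgeR adjusted p = 2.16e-07) and 1.63 ± 0.26 (adjusted p = 0.000225), and the difference of BEC from full cells, -0.49 ± 0.26, did not pass (adjusted p = 0.218) except without a filter on low counts (0.00864) and in a fit of these groups alone (0.0205).

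Col14a1, a fibril-associated collagen of fibroblasts, was called in BEC against full cells alone among these 3 comparisons (2.13 ± 0.47, edgeR adjusted p = 0.00484), with 5.66, 4.37 and 4.24 CPM in full cells and 19.9, 18.0 and 24.6 CPM in BEC. Its early libraries ran from 3.56 to 11.4 CPM and its intermediate ones from 1.38 to 8.77 CPM. Without early replicate 1 (adjusted p = 0.0480) or intermediate replicate 3 (0.00518), and without a filter on low counts (0.0178), the first step passed as well. Col9a3 had 0, 3 and 0 counts in early libraries and 7.57 to 8.96 CPM in full cells, and Col9a2 had 0 counts in every early library and 0.831 to 1.65 CPM in full cells, whose mean was at least 5.22-fold higher than the mean early floor of 3 counts per library. Col20a1 rose at the first step, at 2.02 to 3.00 CPM in early cells and 3.29 to 5.09 CPM in intermediate cells, as did Col23a1, a transmembrane collagen, at 0.0809 to 0.818 and 0.566 to 1.81 CPM.

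The 27 tested genes of collagen processing showed 13 calls higher and 2 lower at the first step, 11 and 5 at the second, and 5 and 11 in BEC against full cells. The shares over all genes were 28.7% higher and 25.7% lower, then 20.8% and 19.8%, then 10.7% and 10.6%. Serpinh1, the collagen chaperone of the endoplasmic reticulum, had 1.74, 5.82 and 6.23 CPM in early cells, 4.65, 5.53 and 5.77 in intermediate cells, 48.1, 49.8 and 45 in full cells and 121, 157 and 164 in BEC. Its early and intermediate libraries overlapped, and the full and BEC libraries were apart from them and from each other. Adamts14, a protease that trims the amino end of fibrillar procollagen, had 2.75 to 4.27 CPM in early cells, 33.9 to 45.4 in intermediate cells, 29.5 to 32.3 in full cells and 3.47 to 4.61 in BEC. Loxl2, a lysyl oxidase that cross-links type IV collagen, had 3.40 to 6.64, 40.9 to 49.1, 32.3 to 39.2 and 2.83 to 4.01 CPM. For Adamts14 and Loxl2, the intermediate and full libraries lay above all early and BEC libraries.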

How the data were processed

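The authors deposited raw counts per gene symbol for all 12 libraries. Per the submitters' processing notes, STAR 2.7.10b, featureCounts 2.0.1, DESeq2 and the GRCm39 build were used; annotation, strandedness and the treatment of reads shared between genes are not given in the sources used here, so antisense or overlapping genes cannot be told apart. A second deposited table of scaled values was not used. Counts were filtered by filterByExpr (16210 genes kept), scaled by TMM and fitted in 1 model of 4 groups in edgeR 4.0.16 (R 4.3.3); calls needed a Benjamini-Hochberg adjusted p under 0.05 over all genes tested. The SE was the absolute log2 fold change over the square root of the F statistic. The floor was 3 counts, or 0.128 to 0.273 CPM, and covers counting error only. Replicates differed beyond counting noise (chi-square per degree of freedom 5.34 to 58.2). Same-numbered libraries deviated together in the 3 neighbouring comparisons (every r over 0.1, from 0.121 to 0.322), so blocked values are given where they change a call. In full against early the lowest r was 0.0960, and that comparison was not treated as paired. The blocked value of Lama2 there is given as an alternative fit only. Alternatives were DESeq2 1.42.0, other scalings and filters, a 2-fold minimum, fits of 2 groups, the block and leaving out each library. Named genes were chain genes leading their class or called with a group mean of at least 5 CPM, the chains of set trimers, and genes of the fixed lists. Results of 1 gene are counted in its class and are not reported here. The scripts were tested on simulated data. The genes and lists were chosen with earlier results of these data known.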

Additional observations from a re-analysis of the deposited data

How the results depend on the processing

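Most values kept their direction and their side of the threshold. Of 2553 values of 32 chains under an alternative, 2410 did so, 58 lost and 58 gained a call and 27 changed sign. Of the counts of calls outside leave-one-out, 140 stayed within 1.5 times and 32 did not; the cause was not tested beyond what each setting does.

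A 2-fold minimum left 2773, 1931, 803 and 5671 genes called in intermediate against early, full against intermediate, BEC against full and full against early, from 8817, 6590, 3445 and 11541. Basement membrane chains called higher then numbered 8 (from 15) in full against intermediate and 5 (from 9) in BEC against full, and those called lower 1 (from 2) at the first step and 0 (from 1) in BEC. Fibrillar collagens called higher numbered 1 at the first step, 0 at the second and 1 in full against early (from 2, 1 and 3), and those lower 0 at the first step and 0 in BEC (from 2 and 2).

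On plain totals of counts, 1 basement membrane chain and 0 fibrillar collagens were lower at the first step, and 2 fibrillar collagens were higher at the second. Without a filter, fibrillar collagens called higher numbered 3 in BEC and 2 at the second step and those lower 4 at the first and 3 at the second step, and 1 basement membrane chain was lower in full against early. With the replicate block these were 3 higher in BEC, 4 lower at the first and 2 lower at the second step, and 1 basement membrane chain lower in full against early; the block changed no other printed call than those named in the report. Fits of 2 groups gave 0 basement membrane chains lower at the first step, where Lama3 was not tested, 1 lower in full against early, and fibrillar collagens 2 higher at the second step, 3 higher in BEC and 1 lower at the first step. DESeq2 gave 1 basement membrane chain lower in full against early, and in each of these settings that chain was Lama2; a mean of at least 50 counts gave 1 fibrillar collagen higher at the first step. With 1 library left out, fibrillar collagens called lower ranged from 1 to 4 at the first and 1 to 3 at the second step, those higher at the second from 1 to 2, and basement membrane chains lower from 1 to 3 at the first step and 0 to 1 in full against early.

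Signs changed on plain totals of counts at the first step for Col4a3 (0.265), Col4a4 (0.645), Col5a1 (0.0783), Col5a3 (0.646, adjusted p = 0.00705), Col6a1 (0.0603), Col6a2 (0.0907) and Lamb1 (0.0896), and in full against early for Col14a1 (0.0926). Without a filter they changed for Col4a4 (0.0370) and Col5a3 (0.0175) at the first step and, in BEC, for Col4a5 (-0.0103) and Lamc1 (-0.000153). With 1 library left out, the ranges that crossed 0 were -0.11 to 0.36 for Col1a1 and -0.0572 to 0.104 for Col4a5 in BEC, -0.339 to 0.997 for Col14a1 and -0.57 to 0.34 for Col1a1 at the second step, and -1.20 to 0.0896 for Col4a3, -0.91 to 0.46 for Col4a4 and -0.21 to 0.17 for Col5a3 at the first. The 11 chains under 5 CPM in every group mean had at most 92 counts in a library, and the effect of depth on them was not tested.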

Other observations

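Markers of other cell types were measured beside the chains. The early, intermediate and full groups were sorted as EGFP+ and BEC as EGFP- Epcam+. How far these gates removed other cells, including macrophages, lymphocytes, neutrophils, endothelial cells, stellate cells and fibroblasts, was not tested. The summed level of 8 macrophage markers was 23.5 to 23.8 CPM in early cells, 29.2 to 35.9 in intermediate cells, 64.5 to 87.7 in full cells and 132 to 146 in BEC. Its rise was that of Csf1r, with group means of 3.94, 24.6, 67.8 and 127 CPM, and without Csf1r the means were 19.7, 8.02, 8.19 and 14.5 CPM. Cd68 was highest in early cells (means 14.0, 2.74, 1.62 and 3.46 CPM). Mesothelial markers summed to 3.56 to 7.18, 2.58 to 3.73, 30.0 to 45.3 and 225 to 249 CPM, of which Msln and Gpm6a held 99.4% in BEC. Without them the means were 3.58, 1.31, 2.51 and 1.5 CPM. Sums without leading genes were chosen after the levels were seen. Lymphocyte and neutrophil markers reached at most 0.503 CPM in sum. The part of these markers in the chain levels was not tested.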
